A study of Rattus norvegicus with 110 samples.

Results

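Liver RNA of F2 male rats that had received the vehicle alone was compared between males whose grandsire and sire had both been treated with carbon tetrachloride (CCl4) and males with no treated ancestor. The treated-ancestor males form group 20 and the males without a treated ancestor group 11, and each animal's group was read from the first digits of its number. There were 7 males in each group, so that 14 of the 83 liver libraries and of the 110 libraries of the series enter this comparison. Every gene with enough counts was tested.

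All 14 animals were outbred Sprague Dawley rats that were dosed with olive oil by oral gavage at 0.5 mL/kg, 3 times per week, for 39 days, and livers were taken a day after the last dose. In group 20 the F0 grandsire and the F1 sire had each received CCl4 at 50% in olive oil for 6 weeks and had recovered for 2 weeks before mating with untreated females. In group 11 both had received olive oil on the same schedule. The labels call these groups F0-treated/F1-treated and F0-control/F1-control. The rats were fasted overnight, the necropsies were spread over 4 dates, and each group had 2 males on dates 1, 2 and 4 and 1 male on date 3. The time of day of necropsy is not given for single animals in the sources used here.

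The animals limit the comparison as a model in several ways. No male of either group was itself exposed to CCl4, and the groups differ by label in the treatment of their ancestors alone. The 14 males came from different litters, with 6 F0 sires in group 11, where 2 males shared one, and 7 in group 20. The F0 sires of the treated lines were other rats than those of the control lines. In an outbred stock the F0 treatment and the founders' genotypes therefore cannot be told apart here.

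CCl4 is reduced by cytochrome P450 in hepatocytes to a radical that kills the cells around the central vein, and repeated doses lead to scarring by activated stellate cells. Liver gene expression also follows the time of day and the hormonal state of the animal. In the circadian clock, the activator pair of Clock and Arntl (also called Bmal1) drives its own repressors (Per and Cry proteins), the nuclear receptors Nr1d1 and Nr1d2, which repress Arntl, and the D-box factor Dbp. Glucocorticoids, which peak before the active phase and rise in stress, act through their receptor on genes such as Fkbp5, Tsc22d3 and Zbtb16.

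The liver libraries of the comparison held between 32011243 and 46322415 counts. The mean total was 40414657 in group 11 and 35605998 in group 20 (two-sided exact permutation test over all splits of the 14 animals, p = 0.0186, 0.112 after Benjamini-Hochberg adjustment over 6 measures of the libraries). The number of identifiers detected, the share of counts in the 10 highest genes, the balance of long and short transcripts, the mean transcript length and the normalization factor had adjusted p between 0.124 and 0.834. Across genes, the correlation of log2 CPM had a median of 0.981 over the 42 pairs within groups and of 0.978 over the 49 pairs between groups. These values describe the libraries, and their part in the results below was not tested. The deposited tables hold Ensembl identifiers alone, and a symbol was available for 1487 of the tested genes (7.82%), all of them on lists that the study drew up from these samples. The hepatocyte and stellate cell markers have no symbol among these, so the tissue label could not be checked against them here.

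In vehicle liver, 1050 genes differed between group 20 and group 11 at an adjusted p under 0.1 and 17954 tested genes did not, a background of 5.53% called (edgeR quasi-likelihood F test with Benjamini-Hochberg adjustment over all genes tested). Expression was higher in group 20 for 738 genes, 3.88% of those tested, and lower for 312, 1.64%. Over all genes tested the median log2 fold change was -0.00472, and 48.5% of the genes had a difference above 0. Changes were moderate in size. The median absolute log2 fold change was 0.67 among the genes that rose (quartiles 0.50 and 1.02) and 0.49 among those that fell (0.34 and 0.74), and it was over 1 for 188 and 43 genes, respectively. For 271 of the 1050 genes all 7 males of a group lay on the same side of all 7 of the other, against 1.9% of all genes tested, and the test and the overlap rest on the same values. In counts simulated for this comparison, the test recovered 41 of 100 genes with a change of 0.5 on the log2 scale and 88 of 100 with a change of 1, with 18 other calls among 18821 genes, so that changes of the smaller size were often missed with 7 animals per group.

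**Figure D1:**
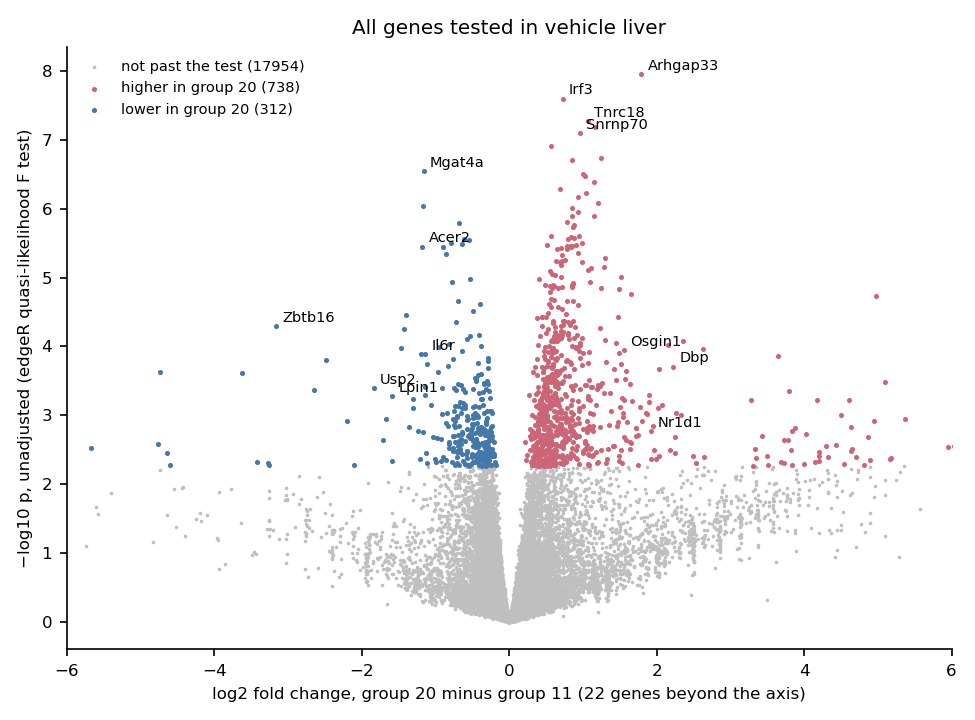
Log2 fold change (x axis, group 20 minus group 11) against the unadjusted p of the edgeR test as −log10 (y axis) for each gene tested in vehicle liver, with 22 genes beyond the x axis. Red points are the 738 genes that rose and blue points the 312 that fell, and the rises are more numerous.

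The count depended on the animals of single necropsy dates. A fit without a date left out all liver libraries of that date, those of the other groups included. Without date 4, which held 2 males of each group, 8 genes passed the test (1902 at an unadjusted p under 0.05), namely Pcyt1a, Cd38, Rapgef5, Acer2, Kank2, Mgat4a, Tnrc18 and Pabpn1, each with an adjusted p of 0.0882. Without date 1 the count was 320, without date 3 it was 569, and without date 2 it was 1304. A fit with a term for the date gave 1054 calls, which held 999 of the 1050. The sizes of the differences moved less than the calls. Among the 1050 genes the median log2 fold change without date 4 was 0.57 for those that rose and -0.47 for those that fell, all 1050 kept their sign, and the median standard error was 0.209 against 0.171 with all dates. These genes were chosen with date 4 included.

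Within each date the differences had the same directions for most of these genes. The median difference of the genes that rose was 0.60 on date 1, 0.39 on date 2, 0.67 on date 3 and 0.87 on date 4, and that of the genes that fell -0.48, -0.43, -0.39 and -0.52. The sign was the same on all 4 dates for 917 of the 1050 genes (87.3%), against 28.4% of all genes tested. The genes were called on the same animals, so these shares describe the calls and are no independent test.

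Of the 10 genes with the smallest p among those with a symbol and no overlap between the groups, 9 rose and 1 fell. Arhgap33, a GTPase-activating protein, had the smallest p of all genes. Its normalized count was lowest at 29.6, with a median of 48.4 and a highest value of 58.0 in group 11, and 70.6, 151 and 265 in group 20. All animals of group 20 lay above all of group 11, with the wider spread in group 20. The rise was 1.79 in log2 units (standard error 0.28, adjusted p = 2.12e-04).

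Irf3, the transcription factor that turns on interferon genes after viral sensing, ranged from 1816 over a median of 1852 to 2340 normalized counts in group 11 and from 2672 over 2925 to 3957 in group 20. The groups were separate, and 1 animal of group 11 stood above its others. Irf3 rose by 0.73 (standard error 0.12, adjusted p = 2.38e-04). None of the 4 interferon-induced genes that carry a symbol (Rtp4, Cxcl11, Stat2 and Helz2) passed the test, and their median log2 fold change was 0.03.

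Among the other rises with the smallest p were Tnrc18 (log2 fold change 1.07) and Bahcc1 (1.25), both large nuclear proteins with a chromatin-binding BAH domain, and Gigyf1 (1.004), an adaptor in translational repression. Fam193b rose by 1.16 and Kank2, an adaptor between integrins and the cytoskeleton, by 0.85. Pabpn1, the nuclear protein that binds poly(A) tails, rose by 0.57. Each of these genes showed no overlap and an adjusted p of at most 5.74e-04, and each stayed past the threshold when any 1 animal was left out.

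Smad6, an inhibitor of bone morphogenetic protein signalling, had 15.2, 44.4 and 62.0 normalized counts (lowest, median and highest) in group 11 and 66.4, 113 and 126 in group 20. The highest animal of group 11 and the lowest of group 20 were close, and there was no overlap. Smad6 rose by 1.30 (standard error 0.26, adjusted p = 0.00195). Tle2, a corepressor of the Groucho family, rose by 1.21, Mier2, a histone deacetylase partner, by 1.15, Tnfaip2, a gene induced by tumour necrosis factor, by 1.10, and Fbrsl1 by 1.07.

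Osgin1, a gene induced in oxidative stress, was the most abundant of the large rises. In group 11 its normalized counts ran from 3110 over a median of 3764 to 10181, and in group 20 from 10479 over 14220 to 24353. The highest animal of group 11 lay just under the lowest of group 20, and the other males of group 11 were well below. The rise was 1.56 (standard error 0.38, adjusted p = 0.0127). The transcription factor Nfe2l2 itself had a difference of 0.49 (adjusted p = 0.107) and its partner Mafg one of 0.22 (adjusted p = 0.426), and neither passed. Of these 3 genes, 2 passed with the date as a block and in DESeq2, and 1 with the F0 sire as a correlated block.

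Of the genes without a symbol, ENSRNOG00000013090.7 had the largest rise under the same rule, by 1.90 (adjusted p = 0.0333), followed by ENSRNOG00000053691.1 with 1.53 (adjusted p = 0.0312). The largest falls among them were -0.85 for ENSRNOG00000039048.2 (adjusted p = 0.00179) and -0.77 for ENSRNOG00000046204.2 (adjusted p = 0.0447).

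The largest fall among the genes with a symbol and no overlap was that of Lpin1, described with the clock genes below. Acer2, the Golgi ceramidase that releases sphingosine, had 927, 1143 and 1638 normalized counts (lowest, median and highest) in group 11 and 403, 510 and 808 in group 20. The groups were separate, and the difference had the same sign on all 4 dates. Acer2 fell by 1.18 (standard error 0.23, adjusted p = 0.00158) and stayed past the threshold under each of the 14 omissions of 1 animal and each of the 16 other settings.

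Il6r, the receptor through which interleukin-6 induces acute phase proteins in hepatocytes, was at 5582, 10061 and 11701 normalized counts in group 11 and at 3162, 4142 and 5325 in group 20. No animal of group 20 reached the lowest of group 11. Il6r fell by 1.13 (standard error 0.28, adjusted p = 0.0135). The fall was smallest on date 3 (-0.28), where each group had 1 male, and largest on date 2 (-1.68).

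Mgat4a, which builds branched N-glycans, fell by 1.16 and Rapgef5, an exchange factor for Rap GTPases, by 1.17. Slc25a32, the mitochondrial folate carrier, fell by 1.06, the receptor kinase gene Kit by 0.90, and Ell2, a transcription elongation factor, by 0.79. Glt1d1 fell by 1.12 and Fam180a by 1.11, Kbtbd8, a ubiquitin ligase adaptor, by 0.83, and Cfap20 by 0.82. These 9 genes showed no overlap. Glt1d1 was the least stable of them, past the threshold in 4 of 14 omissions of 1 animal.

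Clock genes were followed in separate lists for the arms of the clock. Of 13 listed clock repressors and D-box factors, 7 carried a symbol, and 4 of these rose and 0 fell, with a median log2 fold change of 0.63. The number that rose was 1 without date 1 and 2 without date 2 or date 3. Of 6 clock-driven output genes, 4 fell and 0 rose, with a median of -1.47. Without date 2, 0 of these 6 passed in edgeR and the median was -0.71. Over the 1487 genes with a symbol, 33.7% passed the test (22.2% rose and 11.5% fell), with a median of 0.05. The study drew these symbols from its results in these samples, so the counts are not independent evidence. Without date 4, none of the members of any list below passed the test, apart from Acer2 among the genes the study names.

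Dbp, which activates genes through D-box elements under direct control of the clock, ranged from 56.8 over a median of 110 to 133 normalized counts in group 11. In group 20 it ranged from 188 over 390 to 907. Every male of group 20 lay above every male of group 11, and the spread was wider in group 20. Dbp rose 4.68-fold, a log2 fold change of 2.23 (standard error 0.57, adjusted p = 0.0173). The difference was 2.19, 2.55, 0.63 and 2.11 on dates 1 to 4.

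Nr1d1, the heme-binding receptor REV-ERB alpha, had 263, 538 and 1089 normalized counts (lowest, median and highest) in group 11 and 1391, 2039 and 3928 in group 20. The groups did not overlap. The rise was 1.92 (standard error 0.59, adjusted p = 0.0560), and 11 of 14 omissions of 1 animal kept it under the threshold.

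Per3, a period protein, was at 39.1, 92.9 and 174 normalized counts in group 11 and at 154, 300 and 428 in group 20, where 5 of 7 males lay above the highest of group 11. Its rise of 1.49 (standard error 0.50, adjusted p = 0.0838) was close to the threshold and passed in only 4 of 14 omissions of 1 animal. Cry2, the repressor that partners Per proteins, rose by 0.54 (standard error 0.17, adjusted p = 0.0666), with 5 of 7 males of group 20 above group 11, and passed in 5 of 14 omissions.

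The remaining repressors did not pass. Nr1d2 had a difference of 0.63 (adjusted p = 0.200), Cry1 one of -0.55 (adjusted p = 0.240) and Per1, which glucocorticoids also induce, one of -1.29 (adjusted p = 0.272). Per1 varied most, from 250 to 1599 normalized counts in group 11 and from 95.5 to 1187 in group 20, where the median was 113 against 974. Arntl, the activator, was the only one of the 6 listed activators and night-phase genes with a symbol. It had 1653, 2101 and 2343 normalized counts in group 11 and 1069, 1548 and 1713 in group 20, and 6 of 7 males of group 20 lay below the lowest of group 11. The difference in Arntl was -0.50 and did not pass (adjusted p = 0.197).

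The promoters of 5 clock genes were searched, and those of Per3, Per1 and Dbp held none of the motifs named here. The sequences of Dbp, Nr1d1 and Arntl are printed because their products form the loop in which Arntl drives Dbp and Nr1d1, and Nr1d1 represses Arntl. They are the 250 bases before the start of the gene in RefSeq's annotation of the GRCr8 rat genome, 5′ to 3′ on the gene's strand. Dbp lies on chr1:105312006-105312255 (plus strand), Nr1d1 on chr10:84229455-84229704 (minus strand) and Arntl, which RefSeq names Bmal1, on chr1:176766078-176766327 (plus strand). Capitals mark a match to 1 of 3 motifs searched on both strands, the E-box CACGTG, the ROR response element core TAGGTCA or the D-box TTATGTAA, and none of the matches overlap.
Dbp: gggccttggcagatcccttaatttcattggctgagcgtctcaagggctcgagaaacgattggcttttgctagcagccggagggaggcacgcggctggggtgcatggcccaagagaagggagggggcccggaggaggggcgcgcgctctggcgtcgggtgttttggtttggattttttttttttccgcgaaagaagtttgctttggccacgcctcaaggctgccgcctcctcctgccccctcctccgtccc
Nr1d1: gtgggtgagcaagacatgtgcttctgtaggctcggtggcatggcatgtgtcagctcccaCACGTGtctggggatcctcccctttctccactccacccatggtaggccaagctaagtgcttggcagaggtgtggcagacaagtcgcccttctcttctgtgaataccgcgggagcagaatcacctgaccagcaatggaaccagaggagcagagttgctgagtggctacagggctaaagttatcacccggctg
Arntl: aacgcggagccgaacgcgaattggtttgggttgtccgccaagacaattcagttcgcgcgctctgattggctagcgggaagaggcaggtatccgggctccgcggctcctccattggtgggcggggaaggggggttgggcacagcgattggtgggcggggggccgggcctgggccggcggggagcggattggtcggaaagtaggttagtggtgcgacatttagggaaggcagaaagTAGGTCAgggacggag
The E-box in the Nr1d1 promoter begins 191 bases before the start, and the ROR element in the Arntl promoter 16 bases before it. Nr1d1 has 2 annotated starts, and the one shown was chosen because its window holds a motif. Among 33469 RefSeq promoters of the same length, 5.59% hold the E-box, 2.26% the ROR element and 0.828% the D-box. A match says only that the letters are there, and these promoters were not measured in this study.

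Among the clock-driven output genes, Lpin1, a phosphatidate phosphatase and transcriptional coactivator of fasting metabolism, had 2643, 5432 and 7801 normalized counts in group 11 and 1222, 1767 and 2370 in group 20. The groups were separate. Lpin1 fell by 1.58 (standard error 0.44, adjusted p = 0.0297) and had the same sign on all 4 dates.

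Usp2, a deubiquitinase with a strong daily rhythm in liver, ranged from 419 over 1395 to 1671 normalized counts in group 11 and from 165 over 181 to 651 in group 20. The ranges overlapped, with 5 of 7 males of group 20 below the lowest of group 11. Usp2 fell by 1.83 (standard error 0.50, adjusted p = 0.0254). Tsku, a secreted hepatokine, fell by 1.67 (standard error 0.49, adjusted p = 0.0451), with a range from 3625 to 34433 normalized counts in group 11 alone, and Csnk1d, a kinase that marks Per proteins for decay, by 0.43 (standard error 0.13, adjusted p = 0.0486). Noct (-1.35, adjusted p = 0.260) and Wee1 (-0.57, adjusted p = 0.223) did not pass. The fall of Usp2, Tsku and Csnk1d was largest on date 2 (-3.25, -3.48 and -0.94) and on date 3 the differences were -0.10, 0.30 and 0.11.

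**Figure D2:**
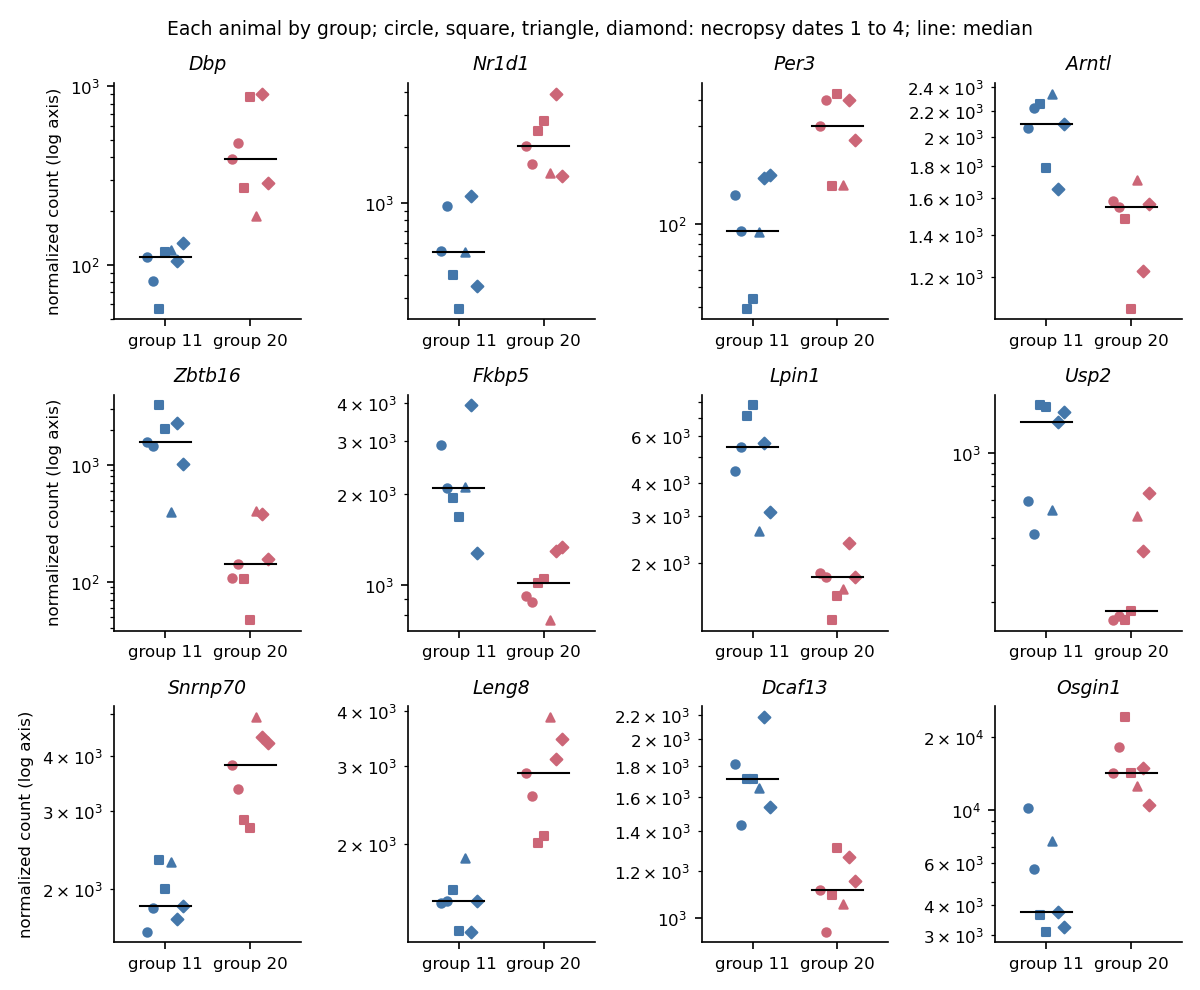
Normalized counts (y axis, log scale) of 12 genes in each of the 7 males of group 11 (blue) and of group 20 (red), with the necropsy date as the symbol and the median as a line. The ranges are separate for Dbp, Nr1d1, Lpin1, Snrnp70, Leng8, Dcaf13 and Osgin1 and overlap for Per3, Arntl, Zbtb16, Fkbp5 and Usp2.

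Zbtb16 showed the largest fall of any gene with a symbol. It encodes the zinc finger repressor PLZF, a glucocorticoid target in many tissues, and is one of the genes the study names. In group 11 its normalized count was 397 at the lowest, 1574 at the median and 3227 at the highest, and in group 20 it was 46.9, 143 and 406. Only the lowest male of group 11 lay within the range of group 20, and 6 of 7 males of group 20 lay below it. Expression in group 20 was 8.91-fold lower (log2 fold change -3.15, standard error 0.73, adjusted p = 0.00825). The male of group 11 with the low value was the one of date 3, where the difference was 0.03, while on dates 1, 2 and 4 it was -3.60, -5.17 and -2.64.

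Fkbp5, a chaperone that lowers the hormone affinity of the glucocorticoid receptor and is itself induced by it, had 1276, 2093 and 3935 normalized counts in group 11 and 766, 1016 and 1337 in group 20. The ranges overlapped slightly, with 5 of 7 males of group 20 below group 11. Fkbp5 fell by 1.13 (standard error 0.31, adjusted p = 0.0292). Of 15 listed glucocorticoid-induced genes, 9 carried a symbol, of which 2 fell, 1 rose and 6 did not pass, with a median of -0.90 (-0.41 without date 2). The 33.3% called was near the 33.7% over all genes with a symbol. The number that fell was 3 with the date as a block, 4 with the replicate number as a block and 1 without date 1. The one that rose was Sik1, a salt-inducible kinase (0.58, adjusted p = 0.0176). Among those that did not pass were Tsc22d3 (-1.35, adjusted p = 0.112), Cdkn1a (-0.90, adjusted p = 0.270), Tat, a gluconeogenic aminotransferase (-0.69, adjusted p = 0.335), and Klf9 (-0.45, adjusted p = 0.473). Hormone levels were not analysed here.

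Of 35 listed splicing factor genes, 19 carried a symbol, of which 11 rose, 0 fell and 8 did not pass. The 57.9% called stood against 33.7% over all genes with a symbol, of which 22.2% rose, and the study chose these symbols from its results in the same samples. The log2 fold change was above 0 for 18, with a median of 0.53. The number that rose was 6 without date 1, 13 without date 2, 9 without date 3 and 0 without date 4, while the median stayed between 0.43 and 0.67. Snrnp70, the U1 snRNP protein that recognizes 5′ splice sites, had 1602, 1835 and 2331 normalized counts (lowest, median and highest) in group 11 and 2751, 3817 and 4917 in group 20. All males of group 20 exceeded all of group 11. Snrnp70 rose by 0.96 (standard error 0.16, adjusted p = 3.02e-04).

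Leng8, which acts in nuclear RNA processing, had 1271, 1491 and 1862 normalized counts in group 11 and 2009.5, 2896 and 3877 in group 20, again with no overlap, and rose by 0.94 (standard error 0.18, adjusted p = 0.00111). The arginine-serine-rich protein genes Pnisr (0.85), Clasrp (0.78) and Srsf5 (0.76) rose with adjusted p of at most 0.00203. The other rises were Rsrp1 (0.65), Srrm2 (0.59), Sfswap (0.56), Pnn (0.53), Ddx39b (0.53) and Luc7l3 (0.47). Clk1, the kinase that phosphorylates serine-arginine-rich proteins, had a difference of 0.43 (adjusted p = 0.126), and Srsf4 was the 1 member below 0 (-0.26, adjusted p = 0.481). Each of the 5 genes with the largest rise was above 0 on each date, with the smallest difference on date 2, between 0.27 for Clasrp and 0.53 for Leng8.

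Of 50 listed ribosome biogenesis genes, 39 carried a symbol, of which 9 fell, 0 rose and 30 did not pass. The 23.1% called lay below the 33.7% over all genes with a symbol. The log2 fold change was below 0 for 37, with a median of -0.25. The number that fell was 0 without date 1, 17 without date 2, 1 without date 3 and 0 without date 4, with medians between -0.35 and -0.22. Dcaf13, a component of the small subunit processome, had 1436, 1711 and 2182 normalized counts in group 11 and 949, 1114 and 1315 in group 20, with no overlap. Dcaf13 fell by 0.60 (standard error 0.16, adjusted p = 0.0273).

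Gar1, a protein of the H/ACA snoRNPs that guide pseudouridylation, fell by 0.65 (adjusted p = 0.0691), the rRNA methyltransferase-like gene Rrp8 by 0.60 (adjusted p = 0.0352) and Tsr1, a maturation factor of the small subunit, by 0.56 (adjusted p = 0.0453). With transcript lengths as offsets the difference in Tsr1 was -0.31 (adjusted p = 0.302). Gtpbp4 (-0.53), Riox1 (-0.51), Wdr43 (-0.50), Mphosph10 (-0.44) and Rrp7a (-0.24) also fell. Nop56 and Nop58, the core box C/D snoRNP proteins, had differences of -0.54 (adjusted p = 0.145) and -0.42 (adjusted p = 0.258), and the 2 members above 0 were Bop1 (0.06) and Ddx51 (0.03).

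**Figure D3:**
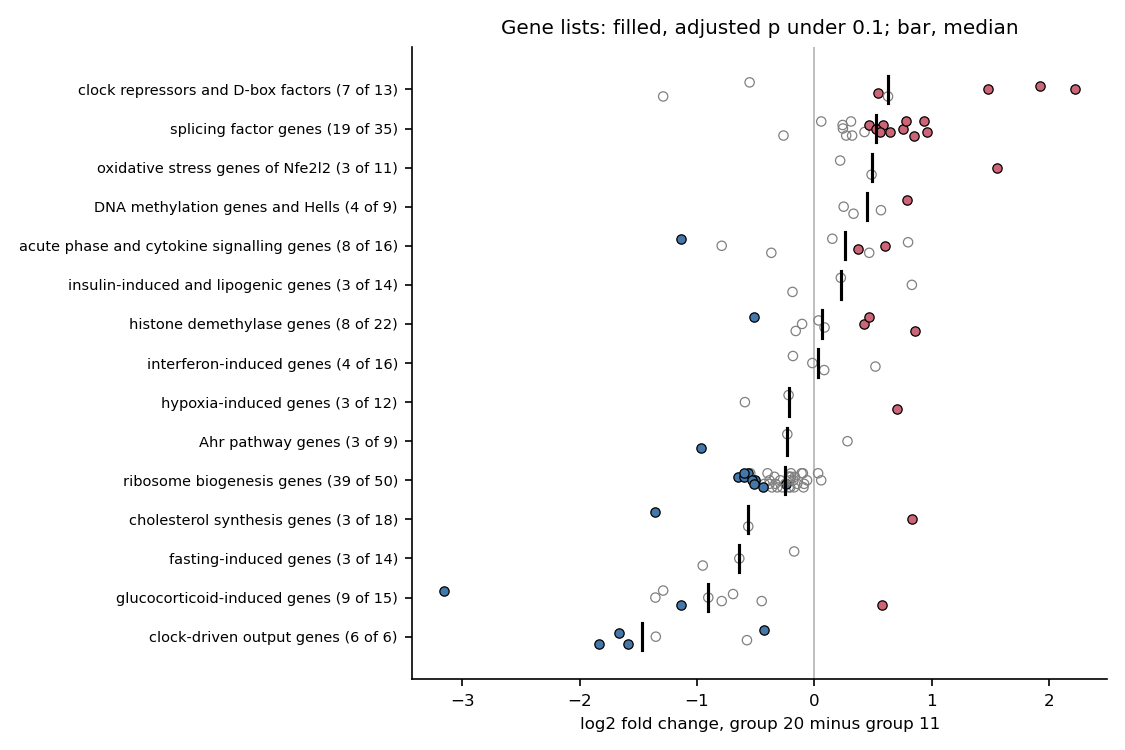
Log2 fold change (x axis, group 20 minus group 11) of each member with a symbol in 15 gene lists (y axis, with the number of members with a symbol of those listed), with filled points for an adjusted p under 0.1 and a bar at the median. Of the splicing factor genes 18 of 19 lie right of 0 (median 0.53), and of the ribosome biogenesis genes 37 of 39 lie left of it (median -0.25). Clock-driven output genes have the lowest median, -1.47.

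Metabolic lists held few genes with a symbol. Of 18 listed cholesterol synthesis genes, 3 carried a symbol, of which 1 rose, 1 fell and 1 did not pass. Their single values are not given here. Both bile acid genes with a symbol rose, Slc10a2, the apical sodium-dependent bile acid transporter, by 1.11 (standard error 0.30, adjusted p = 0.0251) and Fgfr4, the hepatic receptor for the ileal hormone that represses bile acid synthesis, by 0.58 (standard error 0.14, adjusted p = 0.0124). Over all genes with a symbol 22.2% rose, and the study drew these symbols from its results in the same samples. The normalized counts of Slc10a2 were low, from 28.3 to 75.7 in group 11 and from 42.7 to 201 in group 20. Its call was lost without group 20 replicate 2, where the difference was 0.88 (adjusted p = 0.104), and without date 1 or 4.

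None of the 3 fasting-induced genes with a symbol passed, which were Ppargc1a (-0.95, adjusted p = 0.159), Foxo1 (-0.64, adjusted p = 0.165) and Foxo3 (-0.17, adjusted p = 0.786). Of 14 listed insulin-induced and lipogenic genes, 3 carried a symbol and 0 passed in edgeR, with 2 differences above 0 and 1 below. The 2 above 0 were 0.83 for Srebf1 (adjusted p = 0.157) and 0.23 for Scd2 (adjusted p = 0.550). The 1 growth hormone axis gene, Igfals, had a difference of 0.56 (adjusted p = 0.303).

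The 2 endoplasmic reticulum stress genes with a symbol, Herpud1 and Edem1, which act in the degradation of misfolded proteins, fell by 0.73 (adjusted p = 0.0265) and 0.73 (adjusted p = 0.0978), and Herpud1 alone showed no overlap. Both calls were lost without date 2, and that of Edem1 also without date 1 or 3. The share that fell over all genes with a symbol was 11.5%. Cirbp, the cold-inducible RNA-binding protein, rose by 0.76 (adjusted p = 0.0287) with no overlap, while Hspa4l had a difference of -0.69 (adjusted p = 0.226). Mcm10, a replication initiation factor, fell by 1.31 (standard error 0.36, adjusted p = 0.0316), and Ccne1, the other proliferation gene, had a difference of -0.76 (adjusted p = 0.292). The calls of Cirbp and Mcm10 were lost without date 1.

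Of 8 acute phase and cytokine signalling genes with a symbol, Il17ra and Icam1 rose and Il6r fell, so that 37.5% were called against 33.7% over all genes with a symbol. Il17ra, the shared receptor chain of the interleukin-17 family, was at 1873, 1987 and 2156 normalized counts in group 11 and at 2314, 2541 and 2842 in group 20. The groups were separate with a narrow spread, and Il17ra rose by 0.37 (standard error 0.09, adjusted p = 0.00713). Within the dates its difference lay between 0.35 and 0.41. Icam1, an adhesion molecule for leukocytes, rose by 0.61 (adjusted p = 0.0859), and Socs3, a feedback inhibitor of interleukin-6 signalling, had a difference of 0.80 (adjusted p = 0.183).

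On the list of genes the study names, 12 of 16 carried a symbol. The study kept many of them partly for a difference between groups 11 and 20 in these animals, so their calls are not independent evidence. Of the 12, 75% were called against 33.7% over all genes with a symbol, and 5 rose and 4 fell. Beside Zbtb16, Lpin1, Acer2, Slc10a2 and Il17ra, these were Vegfa, the endothelial growth factor, Ski, a corepressor of TGF-beta signalling, Tet3 and Ahr. Vegfa had 3954, 4704 and 5422 normalized counts in group 11 and 5758, 8250 and 8491 in group 20, with no overlap, and rose by 0.70 (standard error 0.14, adjusted p = 0.00158). Ski had 437, 464 and 596 against 767, 864 and 1023, also with no overlap, and rose by 0.78 (standard error 0.16, adjusted p = 0.00158). The other fibrosis gene with a symbol, Tgfb2, had a difference of -0.13 (adjusted p = 0.873), and Ankrd37 and Aldoa, the hypoxia-induced genes beside Vegfa, had differences of -0.59 and -0.22 and did not pass.

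Ahr, the receptor for dioxins and tryptophan metabolites, ranged from 1146 over 2885 to 4351 normalized counts in group 11 and from 774 over 1312 to 1865 in group 20. The ranges overlapped broadly, with 1 male of group 20 below group 11. Ahr fell by 0.96 (standard error 0.25, adjusted p = 0.0193). The difference was 0.02 on date 1, -2.05 on date 2, 0.48 on date 3 and -1.17 on date 4. The call was lost without date 2, where the difference was -0.44 (adjusted p = 0.390), without date 4, and with the replicate number as a block (-0.83, adjusted p = 0.151). Its target genes Cyp1a1 (0.28, adjusted p = 0.939) and Cyp1a2 (-0.23, adjusted p = 0.807) did not pass. Cyp1a1 was near the floor, at 0 to 23.8 normalized counts in group 11, where a difference is hard to detect.

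Of 4 DNA methylation genes with a symbol, 1 rose and 3 did not pass, against 33.7% called over all genes with a symbol. Tet3, which oxidizes 5-methylcytosine, had 249, 414 and 424 normalized counts in group 11 and 349, 723 and 836 in group 20, where 6 of 7 males lay above the highest of group 11. Tet3 rose by 0.79 (standard error 0.19, adjusted p = 0.00971), a call that was lost without date 1. Hells, a helicase needed for DNA methylation (0.57, adjusted p = 0.181), Dnmt3b, a de novo methyltransferase (0.34, adjusted p = 0.285), and Tet2 (0.25, adjusted p = 0.475) did not pass. Hells passed in 0 of 14 omissions of 1 animal, and its adjusted p was 0.0760 with transcript lengths as offsets. In this list 2 genes rose with transcript lengths in edgeR or DESeq2 and with groups 11 and 20 alone. The count was also 2 with the replicate number as a block, in the 27 vehicle males alone and without date 2.

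Of 8 histone demethylase genes with a symbol, 3 rose and 1 fell, against 33.7% called over all genes with a symbol. Without date 1 and without date 3, 1 rose and 0 fell in edgeR. Kdm6b, which removes the repressive methyl marks of H3K27, rose by 0.86 (standard error 0.18, adjusted p = 0.00334) with no overlap, Kdm4b by 0.47 (adjusted p = 0.0590) and Kdm4a by 0.43 (adjusted p = 0.0316). Riox1, counted above with the ribosome biogenesis genes, fell by 0.51 (adjusted p = 0.0585). The other 4 members had differences between -0.16 for Kdm1a and 0.09 for Kdm4c.

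Of 9 Kupffer cell and macrophage markers, 4 carried a symbol, of which 1 fell and 3 did not pass, against 33.7% called over all genes with a symbol. The log2 fold change was below 0 for each of the 4. Adgre1, the macrophage receptor F4/80, had 948, 1004 and 1762 normalized counts in group 11 and 501, 744 and 849 in group 20. There was no overlap, and Adgre1 fell by 0.70 (standard error 0.21, adjusted p = 0.0431). The call was lost without group 11 replicate 5, where the difference was -0.57 (adjusted p = 0.123), and without date 1, 3 or 4. Cd5l (-0.71, adjusted p = 0.223), Cd163 (-0.53, adjusted p = 0.121) and C1qb (-0.38, adjusted p = 0.196) did not pass. The sum over the 4 markers ran from 9544 to 15509 in group 11 and from 6167 to 9790 in group 20. In whole tissue, fewer cells of a type and less RNA per cell cannot be told apart, and the part of these cells in the other differences was not tested.

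Cd4, a T cell marker that rat macrophages also carry, had 995, 1224 and 1402 normalized counts in group 11 and 746, 872 and 987 in group 20. These did not overlap, but its difference of -0.42 had an adjusted p of 0.154. Cd247, the other T cell marker, was at 0.05 (adjusted p = 0.918). Of the sinusoidal endothelial markers Stab1, a scavenger receptor, rose by 0.76 (standard error 0.23, adjusted p = 0.0547), and Kdr, the main receptor of Vegfa, had a difference of 0.06 (adjusted p = 0.921). The call of Stab1 was lost without date 1, without group 20 replicate 6 or 7, and with transcript length offsets. The sum of these 2 ran from 3511 to 5069 in group 11 and from 3979 to 6660 in group 20. Slc10a2 was the only cholangiocyte marker with a symbol. No marker with a symbol was at 0 in a whole group, and none of the hepatocyte, stellate cell, B cell, neutrophil, erythroid, pancreas and adipocyte markers carried one.

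The vehicle males with 1 treated ancestor were set beside these values. Group 14 had a treated F1 sire and group 17 a treated F0 grandsire, with 6 males in group 17 and 7 in group 14, and both contrasts share group 11 with the one above. In group 14, 2 genes passed (0.0105%), 1 in each direction (0.00526%), and in group 17, 52 genes passed (0.274%). Over the 738 genes that rose in group 20, the median difference from group 11 was 0.67 in group 20, 0.36 in group 14 and 0.36 in group 17. Over the 312 that fell, it was -0.49, -0.24 and -0.27. Because the genes were chosen against the same group 11 animals, some difference in the same direction is built into these medians.

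For Zbtb16, the difference from group 11 was -0.62 in group 14 and -2.10 in group 17, beside -3.15 in group 20. Acer2 stood at -0.51, -1.04 and -1.18 in the same order, and Lpin1 at -0.53, -1.38 and -1.58. Dbp had values of 0.66, 1.08 and 2.23, and its normalized count reached 452 in the highest male of group 14 and 414 in the highest of group 17. Osgin1 had 1.30, 1.502 and 1.56. Ahr stood at -0.40, -1.01 and -0.96.

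The second treated ancestor made no difference that the test could call. Between group 20 and group 14, 0 genes passed in edgeR, with 982 at an unadjusted p under 0.05, and between group 20 and group 17, 0 passed with 2668 under 0.05. The departure of group 20 from the sum of both single-ancestor differences was also tested, and 0 genes passed in edgeR (1175 at an unadjusted p under 0.05) and 14 in DESeq2. A difference that misses the threshold is not thereby shown to be absent, and the median standard error of the departure was 0.333 on the log2 scale.

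The same ancestral contrast was measured in males of the same cohorts that received CCl4 themselves. These were other animals, although many were littermates. All 7 litters of group 20 also gave a low-dose male and 4 a high-dose male, and in group 11 it was 5 and 5. At the low dose (8% CCl4, group 21 against group 12), 42 genes passed (0.221%), and at the high dose (50% CCl4, group 22 against group 13), 41 genes passed (0.216%).

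The genes called in vehicle liver had the same sign at the low dose for 93.5%, against 68.3% of all genes tested, and at the high dose for 77.6%, against 55.8%. Their median difference shrank with the dose, from 0.67 to 0.30 and 0.13 for the genes that rose and from -0.49 to -0.22 and -0.12 for those that fell. The genes were chosen for their size in vehicle males, and differences chosen in this way tend to be smaller in other animals. Tested directly, 0 genes differed in their ancestral difference between vehicle and low dose in edgeR (619 at an unadjusted p under 0.05, 7 in DESeq2) and 0 between vehicle and high dose (1567 at an unadjusted p under 0.05, 25 in DESeq2).

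Of the 42 genes called at the low dose, 35 were also called in vehicle liver (83.3% of the low-dose calls and 3.33% of the vehicle calls), all with the same sign. They included Dbp, which rose by 3.00 (adjusted p = 0.0118), Cry2 by 0.70 (adjusted p = 0.0669), Kank2 by 0.65 (adjusted p = 0.0375) and Tnfaip2 by 1.13 (adjusted p = 0.0258) at the low dose. Falls shared between both were those of Zbtb16 (-3.78, adjusted p = 0.0182), Tsku (-2.35, adjusted p = 0.0258), Fkbp5 (-1.24, adjusted p = 0.0816), Acer2 (-1.27, adjusted p = 0.00675), Ell2 (-0.72, adjusted p = 0.0258) and Pcyt1a, the rate-limiting enzyme of phosphatidylcholine synthesis (-0.70, adjusted p = 0.00675). With the high dose 3 genes were called in both, which was 7.32% of the high-dose calls and 0.286% of the vehicle calls. The 7.32% was near the 5.53% called over all genes tested in vehicle liver. Lpin1 was one of the 3 genes, with a fall of 1.79 (adjusted p = 0.0789), while Zbtb16 had a difference of -2.68 (adjusted p = 0.133) and Dbp one of 0.19 (adjusted p = 0.993).

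The kidneys of the same 14 males gave a view of a second organ from the same necropsy. In kidney, 129 of 18374 genes passed between group 20 and group 11 (0.702%), 79 higher and 50 lower. Of the 1050 genes called in liver, 1011 were tested in kidney, and 74.98% of them had the same sign there, against 56.5% of all 17403 genes tested in both organs. The median kidney difference was 0.11 for the genes that rose in liver and -0.05 for those that fell. Both organs come from the same animals, so this share is not a replication in other animals.

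In both organs 25 genes passed, 20% of the kidney calls tested in liver and 2.47% of the liver calls tested in kidney, and 24 of the 25 had the same sign. The exception was Tmem39b (0.35 in liver and -0.61 in kidney), which was named after its values were seen. Zbtb16 had the largest difference. In kidney its normalized counts were 349, 743 and 1465 (lowest, median and highest) in group 11 and 22.6, 66.2 and 121 in group 20, with no overlap, and it fell by 3.39 (adjusted p = 0.0451).

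Among the listed clock genes, Dbp rose in kidney by 0.94 (adjusted p = 0.0744) and Per3 by 0.82 (adjusted p = 0.0815), and Tsku fell by 0.77 (adjusted p = 0.0338). Arntl and Per1, which did not pass in liver, fell in kidney by 0.47 (adjusted p = 0.0338) and 1.57 (adjusted p = 0.0815). Nr1d1 had a kidney difference of 1.15 with an adjusted p of 0.1001, just outside the threshold. Lpin1, in contrast, had a kidney difference of 0.11 (adjusted p = 0.856).

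The median of the 19 splicing factor genes was -0.02 in kidney and that of the 39 ribosome biogenesis genes -0.03, with 0 kidney calls in either list in edgeR. Whether these lists differ between organs was not tested. At the low and high dose in liver the splicing median was 0.29 and 0.18, and the ribosome biogenesis median -0.30 and -0.18.

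**Figure D4:**
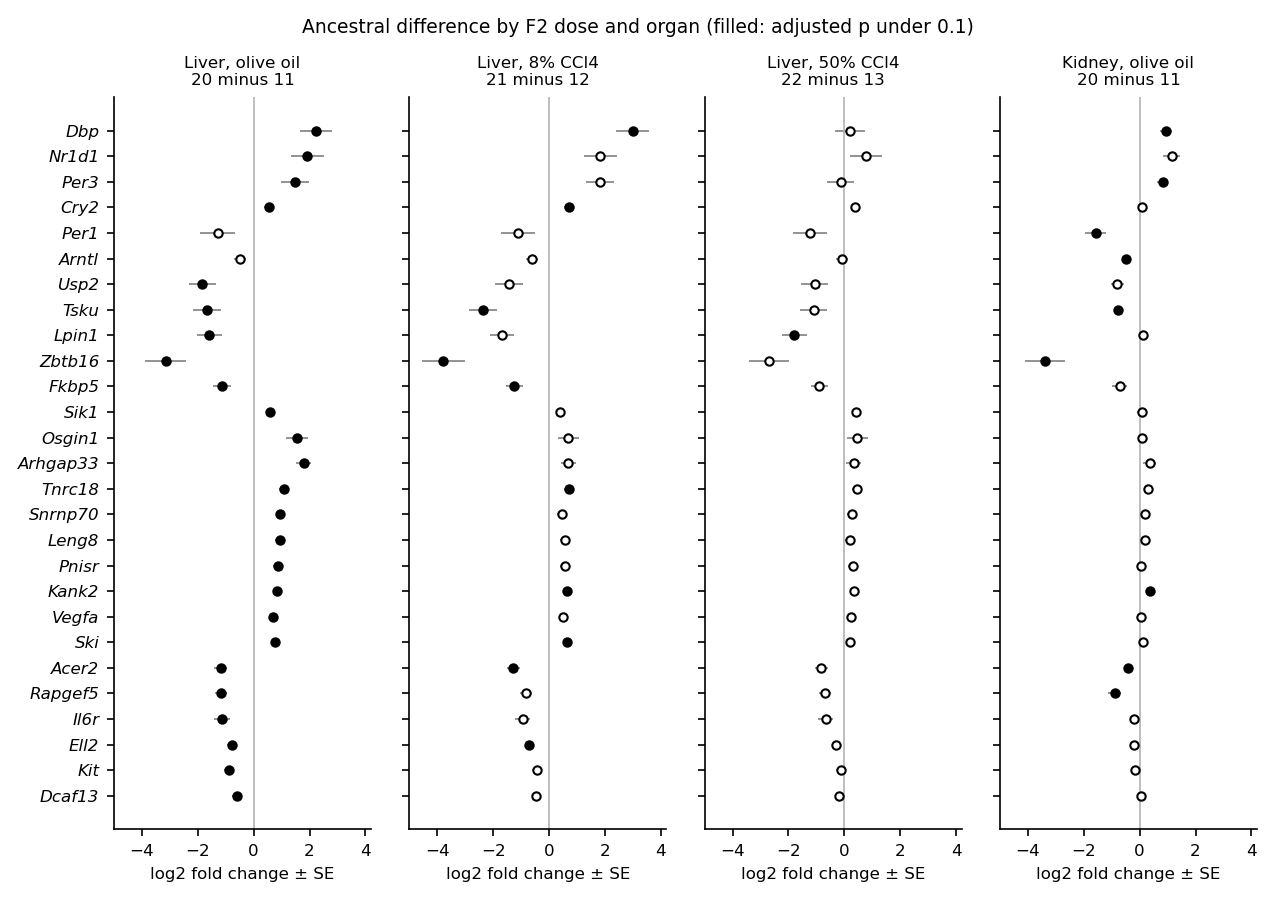
Log2 fold change with its standard error (x axis) of 27 genes (y axis) for the ancestral contrast in vehicle, low-dose and high-dose liver and in vehicle kidney, with filled points for an adjusted p under 0.1. Zbtb16 lies furthest left in all 4 panels (-3.15, -3.78, -2.68 and -3.39), and Dbp is right of 0 in each, near it only at the high dose (0.19).

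Genes with long transcripts were called more often than those with short ones, and mostly as rises. The share called was 2.6% of genes under 500 bases and 8.53% of those over 6000 bases, where 51 rose and 3 fell. The median transcript length was 2428 bases among the genes that rose, 1833 among those that fell and 1659 among all genes tested. In the better measured genes, with over 50 normalized counts on average, the median log2 fold change was -0.13 under 500 bases and 0.13 over 6000 bases. The mean transcript length weighted by counts was 2219 bases in group 11 and 2327 in group 20 (exact permutation test, two-sided, p = 0.0618 and 0.124 after adjustment). With average transcript lengths as offsets, 572 genes passed, of which 548 were among the 1050 and 74.0% rose. The median difference of the 1050 genes was then 0.56 and -0.45.

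Promoters of the genes with a symbol differed little between classes. The median GC content of the 250 bases before the start was 62.4% for genes that rose, 62.0% for those that fell and 60.4% for those that did not pass, against 52.0% for all RefSeq symbols. A promoter could be matched for 82.7%, 80.1% and 81.0% of these classes. An E-box was found in 9.89%, 8.03% and 9.51% of them and in 6.18% of all RefSeq symbols.

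**Figure D5:**
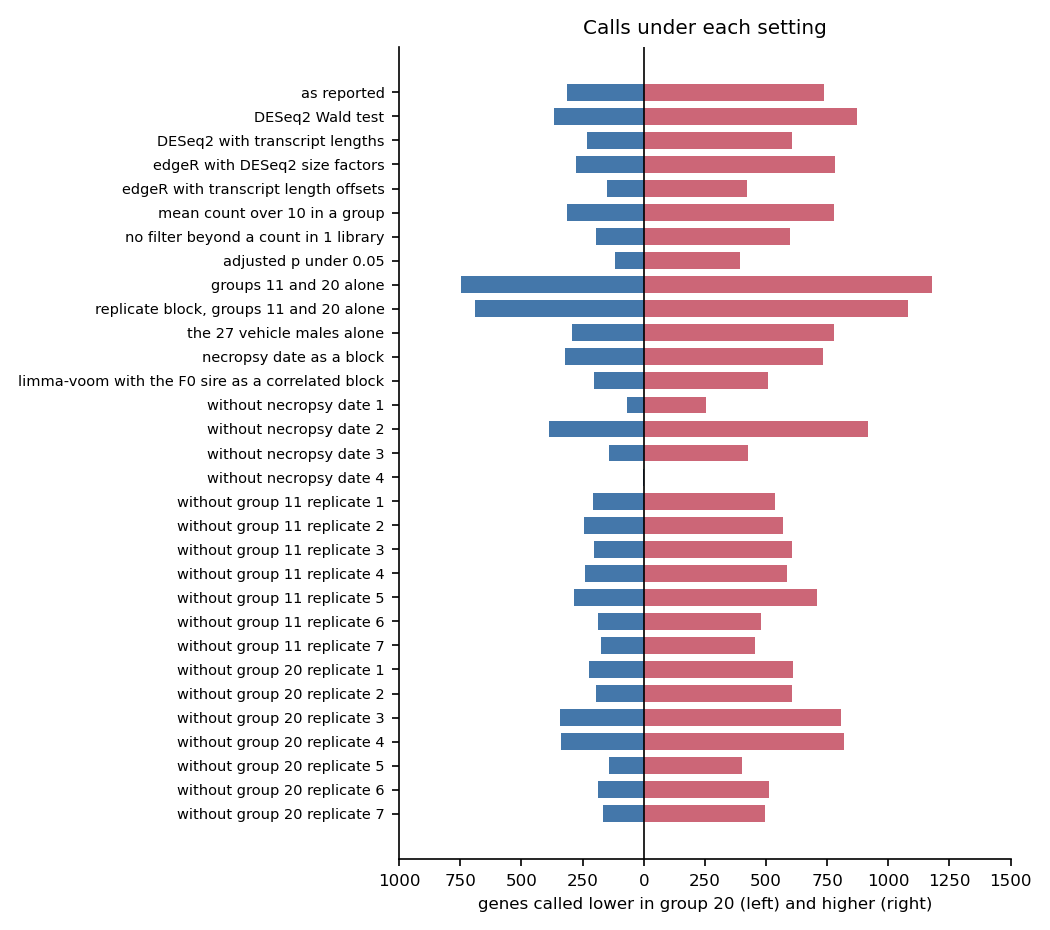
Number of genes called higher in group 20 (red, right of 0) and lower (blue, left of 0) on the x axis for each way of running the comparison (y axis). More genes rose than fell under each setting with over 8 calls, and the count went from 8 without necropsy date 4 to 1925 with groups 11 and 20 alone.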

How the data were processed

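Libraries were stranded mRNA libraries sequenced as read pairs. The authors estimated transcript abundance with Salmon 0.14.0 against Ensembl rat transcripts and loaded the estimates into R 3.5.0, and the submitters' processing notes also name DESeq2. The deposited tables give the authors' estimated counts per Ensembl gene identifier, made whole by rounding and carrying no normalization, with average transcript lengths in bases as a second deposited signal that was used here for offsets only. Of 31998 identifiers 7043 had no count in liver, and 0 value columns were left unassigned. Symbols came from the study's supplementary gene lists.

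The present calculations were run in R 4.3.3 with DESeq2 1.42.0, limma 3.58.1 and edgeR 4.0.16. Genes entered if their counts added up to over 10 in some group. TMM factors were computed, and the quasi-likelihood model of edgeR was fitted over the 12 groups of 83 liver libraries (4 groups of 27 libraries in kidney), as contrasts of group means with Benjamini-Hochberg adjustment and calls at an adjusted p under 0.1. Normalized counts are TMM-scaled to the mean effective library size. The groups came from the deposited sample labels and the dates, litters and sires from the study. Where a library has 0 counts of a gene, up to 3 are allowed by counting error alone. The labels name separate animals. The test was checked on simulated data.

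Named genes had a symbol, an adjusted p under 0.1, a mean normalized count over 50 and no overlap between groups. From these the 12 largest rises, the 12 largest falls and the 10 smallest p were taken, beside the list members past the test, the genes the study names and the cell type markers. The members and lists were chosen with earlier results of these data known. Shares of mitochondrial and ribosomal protein counts had been planned and were not analysed here, because their genes carry no symbol in the sources used. Some list members are not reported here.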

Additional observations from a re-analysis of the deposited data

Results flagged for a closer look

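In 10 of 166 sets of 7 values for a gene or library measure in a group, the lowest or highest animal stood apart from the others by more than the 95% limit of Dixon's test, and chance gives this for about 1 in 20 sets. In group 11 a single male was high in Ell2 (3784 normalized counts against 2562 to 2804 in the others), in Irf3 (2340 against 1816 to 2026) and in Sik1 (2033 against 1232 to 1489). Single males of group 11 were low in Kdm6b (463.7 against 629.5 to 787.5), in Smad6 (15.2 against 39.01 to 61.97) and in Tet3 (249 against 362.5 to 424). In group 20 a single male was low in Smad6 (66.44 against 102.3 to 125.9) and another in Tsr1 (943.4 against 1125 to 1265). Among the library measures, the share of counts in the 10 highest genes was 27.5275% in 1 male of group 20 and 23.23% to 24.81% in the others. The mean log2 CPM of long minus short transcripts was 2.50206 in 1 male of group 11 and 2.878 to 3.122 in the others. That male was the same as the one high in Irf3 and low in Tet3, and the male low in Kdm6b was the one low in Smad6. No cause was tested.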

How the results depend on the processing

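The 1050 genes between groups 20 and 11 became 572 with transcript length offsets, 512 at an adjusted p under 0.05, 1925 with groups 11 and 20 alone, and 320, 569 and 8 without necropsy dates 1, 3 and 4. Leaving out 1 animal gave 541 to 1155 genes. The count moved by over 1.5 times without group 11 replicates 6 (667) and 7 (626) and without group 20 replicates 5 (541), 6 (699) and 7 (662), which are the males of date 4 and 1 male of date 3. Same-numbered animals of groups 11 and 20 shared a necropsy date, and beyond the date nothing in the labels pairs them. The correlation of the deviations of same-numbered animals lay between -0.0771 and 0.218 over 7 pairs, 1 of them was over 0.1, and 0 animals were nearest to their own number. With the number as a block beside both groups alone 1768 genes passed, 824 of them among the 1050. DESeq2 gave 1237 genes, and with the F0 sire as a correlated block (limma-voom, correlation 0.0229) 711 passed. For the other contrasts, DESeq2 gave 125 genes at the low dose, 99 at the high dose, 14 for the departure from the sum, 7 and 25 for the dose differences and 552 in kidney. The date as a block gave 66 at the low dose, and length offsets gave 36 in kidney. Length offsets chosen after seeing the data gave 1 gene in group 14 and 10 in group 17 against group 11. The cause was not tested. No named gene past the test changed its direction under any setting run. With 7 animals per group, changes near 0.5 on the log2 scale are at the limit of detection, and calls near the threshold such as Per3, Cry2, Icam1, Edem1 and Glt1d1 held in only 3 to 5 of the 14 omissions of 1 animal. Kdm4b held in 9, Riox1, Gar1 and Gtpbp4 in 10, Tsku, Wdr43 and Mphosph10 in 11 and Stab1 in 12 of them, and Rrp7a, Pnn and Srrm2 in 2, 7 and 8. Among further named genes, the calls of Cfap20, Dcaf13, Ddx39b, Kbtbd8, Luc7l3, Rsrp1, Fkbp5, Slc25a32, Lpin1, Rrp8 and Tsr1 were lost without date 1, those of Rrp8 and Tsr1 also without date 3, and those of Usp2, Csnk1d, Tsku and Lpin1 without date 2. The calls of Fkbp5 and Slc25a32 were lost without group 11 replicate 6 and that of Csnk1d without group 11 replicate 3.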
